A study of Mus musculus with 25 samples.

Results

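The contacts described here are pairs of 10 kb genomic bins that KLF4 HiChIP listed at all 3 stages examined: day 3 of reprogramming, day 6 of reprogramming, and embryonic stem (ES) cells. A bin pair was counted as kept when the authors' lists of high-confidence interactions held the same pair of bins at each stage. This gave 1499 kept contacts among 41798 bin pairs in any of the 3 KLF4 lists, and among 493983 in any of the 9 interaction lists of the study. The contacts were thus chosen by their KLF4 values, since each list keeps pairs above a minimum CPM and below a maximum p-value, and those values are given as a description and were not tested.

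The study comprised 21 HiChIP and 4 Hi-C libraries in 9 groups. Mouse embryonic fibroblasts (MEFs) came from E13.5 embryos with the genotype Rosa26-M2rtTA/Col1a1-OKSM, heterozygous for the Oct4-GFP reporter, the OKSM cassette (Oct4, Klf4, Sox2 and Myc under a doxycycline-responsive promoter) and rtTA3, the doxycycline-dependent activator. KLF4 in day 3 and day 6 cells can include protein from the cassette. MEFs without doxycycline were taken at passage 3, and reprogramming cells after 3 or 6 days of doxycycline with ascorbic acid. The day 3 cells were a bulk population, and those of day 6 were the SSEA1-positive fraction of a sort, so that stage and sort cannot be told apart. ES cells were the V6.5 line in 2i medium. Cells labelled TKO, a name that the labels do not spell out, were also V6.5 in 2i, without doxycycline (0 h) or with it for 24 h. KLF4 HiChIP had 3 libraries at day 3, 4 at day 6 and 4 in ES. For H3K27ac there were 2 libraries each of MEF and ES and 3 of each TKO group, and for Hi-C 2 each of MEF and ES.

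KLF4 is a zinc finger transcription factor that binds GC-rich sequences with a GGGTG core and is one of the factors used to turn fibroblasts into pluripotent cells. In fibroblasts given the cassette it binds early, at both fibroblast and pluripotency regulatory regions, and in ES cells it acts together with its relatives KLF2 and KLF5. In HiChIP, neighbouring DNA ends are joined inside fixed nuclei and the products bound by an antibody are enriched. At least 1 side of a KLF4 contact is therefore presumed to carry KLF4, but binding at the anchors was not checked here. Acetylation of histone H3 at lysine 27 (H3K27ac) accompanies active promoters and enhancers, and Hi-C records proximity with no antibody. H3K27ac values in CPM and their fold changes below are strengths of contacts in H3K27ac HiChIP, not levels of acetylation at an anchor. In HiChIP a change in acetylation or binding cannot be told apart from a change in contact frequency. All values are means over many cells: a contact that is more frequent in each cell and a contact that occurs in more of the cells cannot be told apart.

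Between 48.7 and 181 M contacts were read per HiChIP library (54.4 to 181 M for KLF4 at day 3, 48.7 to 129 M at day 6 and 51.9 to 102 M in ES), and the kept contacts held a median of 11 to 56 counts per KLF4 library. The depths of the 3 stages overlapped, and the shallowest library was 1 of day 6. Libraries 1 and 2 of ES KLF4 differed by no more than sampling noise, as did libraries 3 and 4, so ES KLF4 counts as 2 replicates. The same held for 1 pair of libraries in each TKO group. No pair of the 4 day 6 libraries differed beyond sampling noise, each pair being scaled to its own totals. By that measure they could be 1 replicate, but libraries were joined only where another pair of the group differed, so they count as 4. At single contacts their SD is thus mostly that of counting, while a shift common to a whole library is not covered. The labelled cell types were checked against markers through the H3K27ac lists: all 18 pluripotency genes with a start site in the annotation had more H3K27ac contacts in ES than in MEF, and 10 of 14 fibroblast genes had more in MEF, with none higher in ES.

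Of the 1499 kept contacts, 789 (52.6%) had the start site of a RefSeq gene in at least 1 anchor bin. Promoter sequences were therefore examined in the 1075 RefSeq windows (250 bases before to 50 after a start site, GRCm38.p6, the same build as mm10) that fell in such a bin and belonged to 902 genes. The letters GGGNGTGG occurred on either strand in 26.3% of these windows and in 17.6% of all 32851 windows. They contain the GGGTG core only where N is G or T, and such matches were not counted apart. In windows whose bin was an anchor of a stage's list but of no kept contact, the share was 21.1% for day 3, 25.4% for day 6 and 23.2% for ES. The kept windows were richer in G and C, with a median of 60% against 52.7% in all windows. Within classes of GC content, the letters were in 12.2% of kept and 7.84% of all windows under 50% GC, in 24.4% and 20.4% from 50 to 60%, in 30.6% and 28.2% from 60 to 70%, and in 32.8% and 26.7% from 70% on. At 60 to 70% GC the share was 36.9% in day 6 bins without a kept contact. A second form, GGGTGGGG, which cannot match at the same position as the first, was in 14.0% of kept and 9.99% of all windows. A match is a description of the letters and not a measured binding site.

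The promoters below belong to genes on which later results turn. The bin of Prdx3, a mitochondrial peroxiredoxin, had 6 kept contacts. Contacts of Rock2, a kinase that acts on the actin cytoskeleton, were weaker in H3K27ac HiChIP of ES than of MEF. The contact of Cox7a1, a subunit of cytochrome c oxidase, joined 2 promoters. That of Trim28, a corepressor of retroelements, was stronger in H3K27ac HiChIP of ES than of MEF. Each sequence is the 250 bases before the start site, read 5′ to 3′ along the gene's strand, with matches to GGGNGTGG, GGGTGGGG or their reverse complements in capitals.
Prdx3, chr19:60874539-60874788, minus strand: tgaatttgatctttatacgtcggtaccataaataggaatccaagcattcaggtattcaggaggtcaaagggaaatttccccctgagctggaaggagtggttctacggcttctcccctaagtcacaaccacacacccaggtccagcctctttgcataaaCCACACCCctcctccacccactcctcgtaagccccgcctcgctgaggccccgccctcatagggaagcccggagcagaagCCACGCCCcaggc
Rock2, chr12:16894728-16894977, plus strand: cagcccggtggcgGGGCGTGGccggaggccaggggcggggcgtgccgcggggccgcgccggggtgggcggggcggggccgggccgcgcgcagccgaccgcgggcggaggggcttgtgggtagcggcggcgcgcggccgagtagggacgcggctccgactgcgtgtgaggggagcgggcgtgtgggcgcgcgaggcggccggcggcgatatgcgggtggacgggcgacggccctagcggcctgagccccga
Cox7a1, chr7:30183921-30184170, plus strand: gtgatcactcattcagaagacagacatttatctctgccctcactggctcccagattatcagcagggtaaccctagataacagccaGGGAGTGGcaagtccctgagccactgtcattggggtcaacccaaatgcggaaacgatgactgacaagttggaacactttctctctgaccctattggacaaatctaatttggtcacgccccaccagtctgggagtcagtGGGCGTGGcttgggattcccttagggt
Trim28, chr7:13023902-13024151, plus strand: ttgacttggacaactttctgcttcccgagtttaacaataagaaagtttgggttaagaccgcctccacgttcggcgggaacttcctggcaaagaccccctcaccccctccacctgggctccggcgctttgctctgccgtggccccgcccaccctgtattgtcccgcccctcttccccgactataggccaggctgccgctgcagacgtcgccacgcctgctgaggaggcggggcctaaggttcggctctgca
All matches shown were to GGGNGTGG. Those of Rock2 and Cox7a1, and that of Prdx3 nearest its start site, do not contain GGGTG. Prdx3 had 2, both on the strand opposite to the gene, starting 92 and 13 bases before the start site. Cox7a1 had 2 on its own strand and Rock2 had 1. The Trim28 stretch held neither GGGNGTGG nor GGGTGGGG. GGGTG by itself was not marked, and with both strands counted it also occurs outside the capitals in the Prdx3, Rock2 and Trim28 stretches.

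The kept contacts made up 6.32% of the 23720 contacts of day 3, 37.0% of the 4047 of day 6 and 6.10% of the 24589 of ES. The short day 6 list was the limit: 5888 further pairs were listed at day 3 and in ES but not at day 6, against 1092 shared by day 3 and day 6 alone and 580 by day 6 and ES alone. Kept contacts were short. Neighbouring bins (10 kb between anchor starts) made up 47.1% of them (706 contacts) and bins 20 kb apart another 31.3%, while 36 contacts (2.40%) spanned 100 kb or more. In the whole lists 30.8% of day 3, 44.9% of day 6 and 37.1% of ES contacts joined neighbouring bins. The longest kept contact spanned 420 kb, which was also the longest of the day 6 list, whereas the lists reached 1450 kb at day 3 and 1020 kb in ES. Almost all kept contacts lay inside 1 topologically associating domain of the Hi-C data, 96.2% of the 1479 on chromosomes covered by the MEF and 96.1% by the ES domains, and the 3 whole lists lay between 95.2% and 96.6%.

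**Figure D1:**
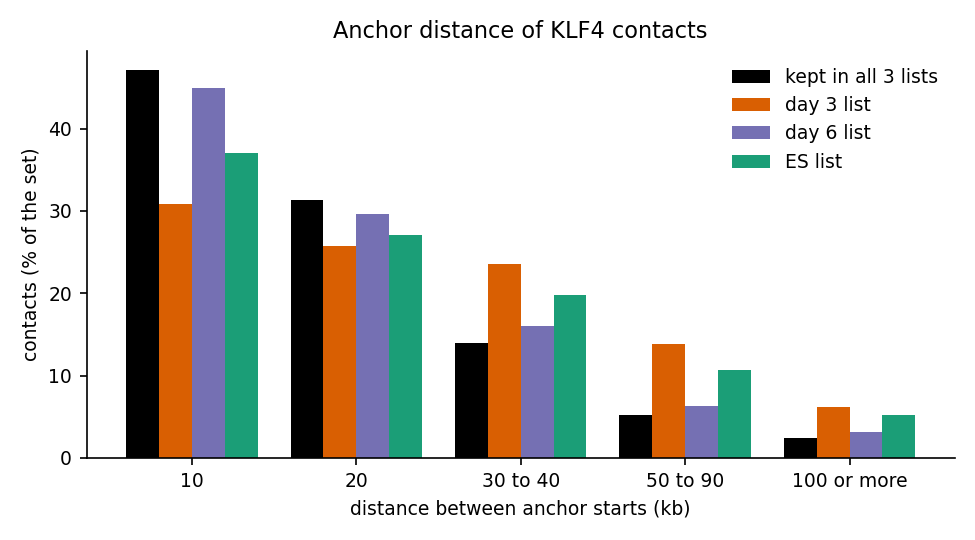
Distance between anchor starts (x axis, kb) for the 1499 kept contacts (black) and the whole KLF4 lists of day 3, day 6 and ES, as percent of each set (y axis). Neighbouring bins hold 47.1% of the kept contacts and 30.8% of the day 3 list, and 2.40% of the kept contacts lie in the longest class.

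Chromosome 19 held 233 of the kept contacts (15.5%), chromosome 17 held 163 and chromosome 7 held 150, against 17 on chromosome 1. The deposited CPM divides by the contacts of the same chromosome, so the authors' minimum of 3 CPM asks for fewer counts on a small chromosome. With 1 minimum relative to the contacts of the whole library, chosen so that every chromosome met the authors' own, 231 kept contacts remained, and chromosome 11 held the most (25). The contacts touched 2421 bins. In 83.7% of these bins a single kept contact ended, and 681 contacts shared no bin with another. The largest connected set covered chr19:8980001-9110000, with 15 kept contacts over 13 bins in and around Ahnak, which encodes a very large scaffold protein of the cell cortex. Its bin at chr19:8990001-9000000 had 7 kept contacts, out of 23, 8 and 20 contacts listed at day 3, day 6 and ES. A bin in the bodies of Pkd2l1 and Scd3 (chr19:44240001-44250000) also had 7, and the Prdx3 promoter bin (chr19:60870001-60880000) had 6, which were all of its 6 contacts of day 6. The bin with the start site of 1700071M16Rik in the body of Pla2g7 (chr17:43590001-43600000) had 5 kept contacts, which were all of its ES KLF4 contacts, beside 3 H3K27ac contacts in MEF and 2 in ES.

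By the authors' gene names, 640 kept contacts (42.7%) had a gene at 1 anchor and 146 (9.74%) at both. At least 1 gene was present in 52.4%, compared with 36.5% of the day 3, 38.9% of the day 6 and 50.7% of the ES list. Of 27025 RefSeq symbols with a start site, 902 (3.34%) had a kept contact, while 22.3% had a contact at day 3 and 28.8% in ES. The pluripotency list had a kept contact at 1 of its 18 genes with a start site (Fgf4), although 15 of them had a KLF4 contact in ES and 5 at day 3. The fibroblast list had none among 14, with 7 having a contact at day 3 and 3 in ES. Of the AP-1 genes, which encode immediate early factors, 2 of 10 had one (Fos and Junb). The KLF and SP family had 1 of 20, Sp1. Among epithelial genes 3 of 10 had one by RefSeq start sites: Cldn6, a tight junction claudin, Crb3, a polarity protein, and Epcam, an adhesion molecule. By the authors' names 2 of 8 had one, Cldn6 and Cdh1, which encodes E-cadherin, and Crb3 and Epcam had none. The respiratory chain had 6 of 85, the mitochondrial ribosome 3 of 69, the Zfp zinc finger genes 12 of 336, and the microRNA genes 0 of 10. These lists were chosen with earlier results of the data known, and their counts were not tested.

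KLF4 strength was given by the authors' CPM (counts per M contacts of their own chromosome). The median over the kept contacts was 7.75, 8.06 and 7.03 CPM in the 3 day 3 libraries, 5.18, 4.78, 5.10 and 4.57 CPM in the 4 day 6 libraries, and 7.63, 7.84, 7.0 and 6.81 CPM in the 4 ES libraries. Day 6 was the lowest in every library, and day 3 and ES overlapped. The stage means of these medians were 7.62 ± 0.53 CPM (SD, n = 3), 4.91 ± 0.29 CPM (SD, n = 4) and 7.26 ± 0.58 CPM (SD, n = 2). At day 6, 1466 of the 1499 contacts had a lower mean CPM than at day 3, and the median log2 ratio of -0.60 ran from -0.82 to -0.42 over the 12 pairs of libraries. From day 6 to ES the median log2 ratio was 0.54 (0.41 to 0.76 over 8 pairs), and 1433 contacts were higher in ES. Between day 3 and ES it was -0.05 (-0.21 to 0.15 over 6 pairs), so its sign depended on the pair. Pairs listed at day 3 and day 6 but not in ES gave -0.52 for the first step, and pairs of day 6 and ES alone gave 0.49 for the second, so the lower day 6 values were not limited to kept contacts.

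**Figure D2:**
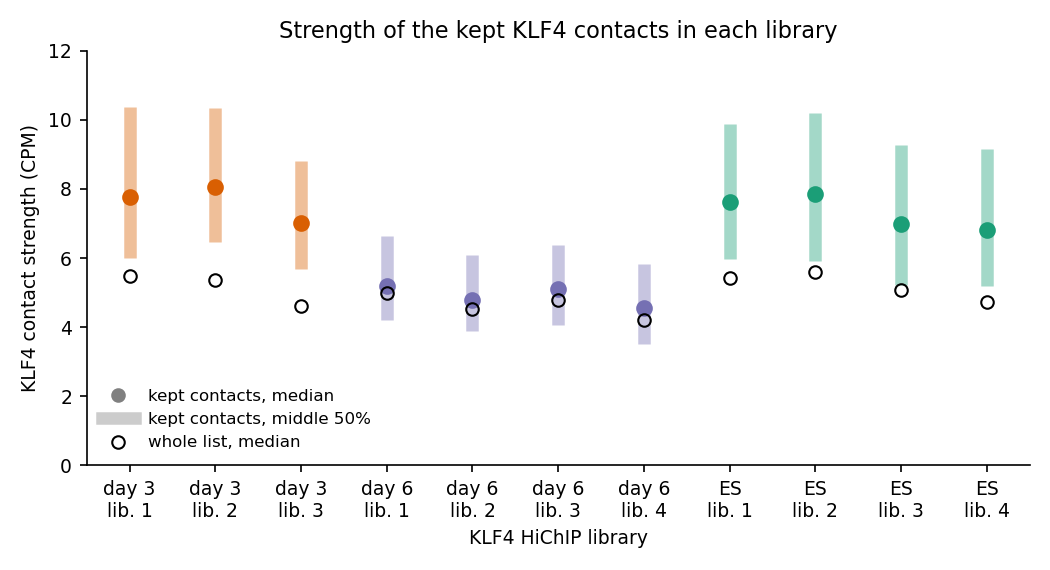
KLF4 contact strength (y axis, CPM) in each of the 11 KLF4 HiChIP libraries (x axis). Filled points are medians over the 1499 kept contacts, bars their middle 50%, and open circles the median of the whole list in that library. The 4 day 6 medians lie between 4.57 and 5.18 CPM, below all 7 others.

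Against the lists they came from, the kept contacts were strong at day 3 and in ES but ordinary at day 6. Their median CPM was 7.61 at day 3 against 5.16 for the whole list, which put the median kept contact at percentile 83.5. In ES it was 7.29 against 5.22, at percentile 80.3, and at day 6 it was 4.92 against 4.68, at percentile 56.4. Across the 1499 contacts, log2 CPM correlated with r of 0.73 between day 3 and day 6, 0.70 between day 3 and ES and 0.76 between day 6 and ES. These are descriptions over contacts that share libraries, bins and the per-chromosome scaling. Between the ends of the series, 30 kept contacts were at least 2-fold weaker in ES than at day 3 and 2 were at least 2-fold stronger. Of the 5888 pairs listed at day 3 and in ES but not at day 6, 58 were weaker and 22 stronger by that measure. Membership needs a listing at every stage, so the rule itself limits how far a contact can fall.

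The strongest kept contact joined chr11:3150001-3160000 and chr11:3170001-3180000, both inside Sfi1, which encodes a centrosomal protein. It had 64.5, 62.9 and 74.5 CPM at day 3, 80.4, 81.8, 89.9 and 81.1 CPM at day 6, and 121, 117, 94.5 and 113 CPM in ES. The stages did not overlap, and this was 1 of the 33 contacts whose mean was above that of day 3 at day 6. It was in none of the 4 H3K27ac lists but in both Hi-C lists, with 1156 and 1161 counts in MEF and 1488 and 1487 in ES, where the median kept contact had 37.5 and 46.5. How reads of repeated sequence were treated upstream is not given in the sources used here. The neighbouring pairs from the bin at 3170001 to those at 3180001 and 3190001 had 132 and 109 CPM at day 6 and missed membership because the ES list lacks them.

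All other contacts among the 10 strongest lay on chromosome 19. Their CPM is relative to the contacts of that small chromosome, so this ranking does not compare chromosomes on 1 scale. With 1 minimum for all chromosomes, chromosome 19 held 12 (5.19%) of the kept contacts that remained. The Prdx3 promoter bin and the neighbouring bin with the start site of Grk5, a G protein-coupled receptor kinase, had 19.5, 22.7 and 19.6 CPM at day 3, 20.9, 17.8, 17.0 and 11.3 CPM at day 6, and 19.9, 16.0, 24.2 and 22.3 CPM in ES. These ranges overlapped at all 3 stages. H3K27ac there was as even, with 18.8 ± 3.64 CPM in MEF and 21.9 ± 0.28 CPM in ES (SD, n = 2 each; edgeR adjusted p = 0.736). The contact inside Slc3a2 (chr19:8700001-8710000 with chr19:8710001-8720000), the heavy chain of amino acid transporters, had 37.4, 32.9 and 24.6 CPM at day 3, 9.09, 10.7, 15.3 and 7.21 CPM at day 6, and 18.5, 19.8, 16.5 and 15 CPM in ES. Its day 3 values were the highest and did not overlap those of ES.

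The contact of Malat1 with Neat1, a pair of long noncoding RNA genes (chr19:5800001-5810000 with chr19:5840001-5850000), had 24.9, 27.3 and 17.3 CPM at day 3. At day 6 it had 4.55, 7.13, 5.67 and 6.52 CPM, and in ES 16.3, 17.5, 33.5 and 32.0 CPM. Day 6 was low in every library, and the ES values split by replicate, the first pair of libraries being lower than the second.

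The largest differences between day 3 and ES, as ratios of geometric means, were lower values in ES. The first was in Akap7, which encodes an anchor of protein kinase A (chr10:25270001-25280000 with chr10:25290001-25300000). It had 22.9, 17.5 and 14.4 CPM at day 3, 5.02, 3.01, 3.83 and 3.47 CPM at day 6 and 4.14, 4.41, 6.46 and 4.80 CPM in ES, 3.71-fold lower in ES. The contact of the Rock2 promoter with a bin 30 kb upstream had 21.2, 15.3 and 15.8 CPM at day 3, 4.67, 3.42, 5.79 and 3.69 CPM at day 6 and 6.74, 4.81, 5.35 and 5.09 CPM in ES. Both were low at the 2 later stages, with no overlap with day 3. Myof, which encodes the membrane repair protein myoferlin, was 3.29-fold lower, with 13.0 ± 3.46 CPM at day 3 (SD, n = 3) and 3.86 ± 0.16 CPM in ES (SD, n = 2). On the other side, a contact within Sptlc2, a subunit of the enzyme that starts sphingolipid synthesis, had 7.75, 10 and 7.28 CPM at day 3 and 19.2, 20.1, 17.8 and 17.2 CPM in ES, 2.24-fold higher. A contact within Slc2a3, the gene of the glucose transporter GLUT3, had 9.44, 7.32 and 6.93 CPM at day 3, 3.99, 4.23, 5.16 and 4.26 CPM at day 6 and 13.3, 12.8, 16.6 and 21.6 CPM in ES. In each all 4 ES libraries stood above all 3 of day 3. By arithmetic means, as in the counts of 30 and 2 above, these were the 2 contacts at least 2-fold stronger in ES. By geometric means a gene-free pair on the X chromosome (2.08-fold) and a contact of Brd8 and Kif20a (2.04-fold) also passed.

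The H3K27ac and Hi-C lists came from libraries that played no part in choosing the contacts. Of the kept contacts, 69.6% were in the MEF H3K27ac list (95% Wilson interval 67.3 to 71.9%, counting error only) and 84.5% in that of ES (82.5 to 86.2%). The TKO lists held 82.1% at 0 h and 79.3% at 24 h, and Hi-C held 70.8% in MEF and 75.9% in ES. Contacts of the KLF4 lists that were not kept were listed less often. Weighted to the chromosomes and distances of the kept set, 48.2% of the remaining day 3 contacts were in the MEF H3K27ac list, and 75.3% of the remaining ES contacts were in that of ES. For Hi-C in ES, the weighted shares were 48.1% for day 3, 66.6% for day 6 and 58.7% for ES. These differences were not tested, since each list is 1 set per group. Within 1 range of strength the H3K27ac shares lay closer in ES: at 7 to 10 CPM, 88.6% of kept and 85.1% of other ES contacts were in the ES H3K27ac list. At day 3 in the same range 73.0% of kept and 56.6% of other contacts were in the MEF H3K27ac list. For Hi-C in that range, 78.0% of kept and 60.1% of other ES contacts were in the ES list.

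**Figure D3:**
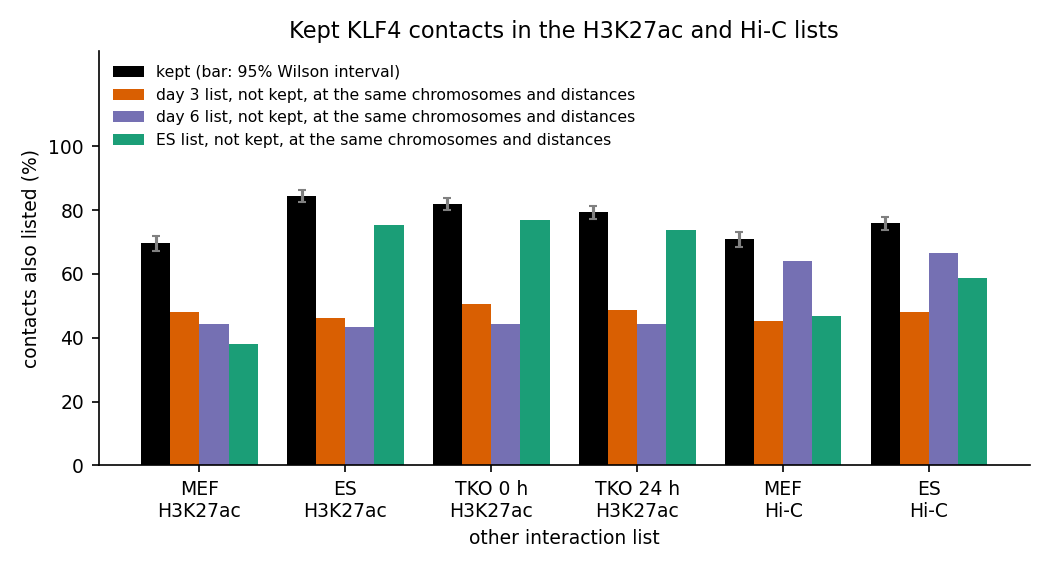
Percent of KLF4 contacts (y axis) that were also in each H3K27ac or Hi-C list (x axis), for the 1499 kept contacts (black, with 95% Wilson intervals) and for contacts of the day 3, day 6 and ES lists that were not kept, weighted to the same chromosomes and distances. The kept share is the highest in all 6 lists, and the gap to the ES list is smallest for ES and TKO H3K27ac.

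In all, 535 kept contacts (35.7%) were in all 6 other lists and 847 (56.5%) in all 4 H3K27ac lists. Of these 847, 62.1% had a RefSeq start site at an anchor. Another 329 were in the ES but not the MEF H3K27ac list, and 107 in the MEF but not the ES list. The first had a median KLF4 log2 ratio of ES over day 3 of 0.05 and the second of -0.31. No H3K27ac list held 91 contacts (6.07%), of which 50 were in both Hi-C lists and 28.6% of which had a RefSeq start site. A contact near Cebpb, a transcription factor of fat and immune cells, was of the MEF-only kind. It joined the Cebpb promoter bin (chr2:167680001-167690000) to a bin 210 kb away, with 5.07, 5.59 and 4.87 CPM of KLF4 at day 3, 5.36, 3.40, 2.83 and 2.32 CPM at day 6 and 6.18, 4.96, 4.84 and 6.27 CPM in ES. H3K27ac listed it in MEF (4.4 and 6.63 CPM) and in no ES or TKO list, and Hi-C listed it in both cell types. The longest kept contact (chr12:70490001-70500000 with chr12:70910001-70920000, 420 kb) had 6.53, 7.07 and 5.06 CPM at day 3, 3.74, 3.42, 3.19 and 3.87 CPM at day 6 and 5.96, 7.87, 3.57 and 3.76 CPM in ES, and H3K27ac listed it in MEF and both TKO groups but not in ES. Fgf4, a growth factor gene of pluripotent cells, was of the opposite kind. Its promoter contact was in the ES and TKO H3K27ac lists (26.4 and 25.5 CPM in ES) and not in that of MEF, while KLF4 had 7.49, 8.64 and 6.94 CPM at day 3 and 7.52, 10.8, 9.52 and 7.85 CPM in ES. The Epcam contact was in the ES H3K27ac list (7.31 and 10.2 CPM) and in none of the other 5, and its KLF4 values of 3.83, 9.25 and 8.0 CPM at day 3 and 12.3, 17.9, 6.72 and 8.06 CPM in ES overlapped.

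At contacts in both lists, H3K27ac was compared between ES and MEF with edgeR's quasi-likelihood test, fitted to the counts of all 17901 such interactions with p-values adjusted over all of them. The threshold for a call was an adjusted p of 0.05, and log2 fold changes are ES over MEF. Of all interactions tested 32.0% were called, 17.6% higher and 14.4% lower in ES. Of the 937 kept contacts tested, 425 (45.4%) were called, 267 of them higher (28.5%) and 158 lower (16.9%). Kept contacts were also strong in these lists, the median one being at percentile 83.2 in MEF and 85.8 in ES. A change is easier to call at higher counts, and shares called at equal strength were not compared. The median log2 fold change was 0.11 over the kept contacts and -0.04 over all. Among the called, the higher contacts had a median log2 fold change of 1.01 and the lower ones of -0.91. With DESeq2, 233 kept contacts were called (159 higher, 74 lower), which is 26.0% of the 897 for which DESeq2 gave an adjusted p, beside 15.8% of all with one. Without TMM factors the median log2 fold change of all interactions moved from -0.04 to 0.21, and the split of the kept contacts became 362 higher and 102 lower. Without MEF library 2, 196 were called higher and 97 lower, beside 18.6% of all.

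KLF4 and H3K27ac differences went together in part, the first being ES over day 3 and the second ES over MEF. The 267 called higher had a median KLF4 log2 ratio of ES over day 3 of 0.13, with 65.9% above 0. The 158 called lower had a median of -0.27, with 25.9% above 0, and the 512 not called had -0.07. Over the 937 contacts the KLF4 and H3K27ac log2 ratios of mean CPM had a Pearson r of 0.39 and a Spearman rho of 0.36. The r was 0.41 over the 511 contacts of 20 kb or more. Both ratios rest on CPM scaled per chromosome. Among 3018 pairs of day 3 and ES that the day 6 list lacks r was 0.34, so the relation was not particular to kept contacts. Among the 375 kept contacts with the lowest KLF4 ratio 73.3% were in the ES H3K27ac list and 76.3% in that of MEF, and among the 375 with the highest 94.4% and 65.1%. Distance also moved with the call. Of 21 kept contacts of 100 kb or more, 1 was called higher and 11 lower (median log2 fold change -0.79), compared with 7.09% higher and 18.1% lower among all 691 of that length, while the 426 of 10 kb had 131 higher and 61 lower, compared with 22.2% and 14.2% of all 6303.

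**Figure D4:**
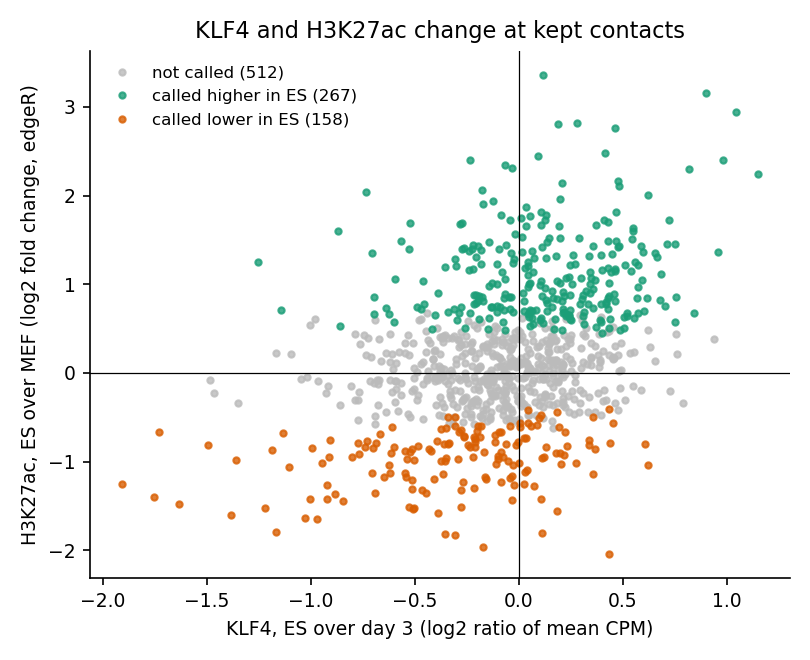
Change of KLF4 strength from day 3 to ES (x axis, log2 ratio of mean CPM) against change of H3K27ac from MEF to ES (y axis, log2 fold change by edgeR) at the 937 kept contacts in both H3K27ac lists. Colours mark the 267 called higher, 158 called lower and 512 not called. The cloud rises to the right, with most contacts within 0.5 of zero on the x axis. The Pearson r of 0.39 in the text uses ratios of mean CPM for H3K27ac and not the plotted fold changes.

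The largest gain of H3K27ac contact strength was at chr17:66450001-66460000 with chr17:66480001-66490000, where neither bin holds a RefSeq gene. H3K27ac was 3.90 and 6.09 CPM in MEF and 57.6 and 59.6 CPM in ES (log2 fold change 3.36 ± 0.19 SE, adjusted p = 2.89e-20). KLF4 there was 12.9 ± 1.92 CPM at day 3 (SD, n = 3), 7.84, 3.25, 4.14 and 4.56 CPM in the day 6 libraries, and 14.0 ± 3.81 CPM in ES (SD, n = 2). The contact of Zbtb45 with Trim28 (chr7:13010001-13020000 with chr7:13020001-13030000) had 6.85 and 7.62 CPM of H3K27ac in MEF and 70 and 70.4 CPM in ES (log2 fold change 3.16 ± 0.14 SE, adjusted p = 3.12e-24). Its KLF4 values were 9.36, 8.50 and 8.37 CPM at day 3, 8.80, 5.46, 5.50 and 4.81 CPM at day 6 and 14.0, 12.6, 19.8 and 18.7 CPM in ES, with all ES values above the rest. At Slc2a3 H3K27ac was 6.86 and 6.52 CPM in MEF and 63.8 and 60.8 CPM in ES (log2 fold change 2.94, adjusted p = 8.88e-23). At Trim71, which encodes an RNA-binding protein of early development, it was 3.45 and 4.52 CPM in MEF and 32.0 and 32.5 CPM in ES (log2 fold change 2.81, adjusted p = 3.05e-17), beside KLF4 values of 8.30 ± 1.72 CPM at day 3 and 9.46 ± 2.53 CPM in ES. At Malat1 to Neat1 it was 16.8 and 23.7 CPM in MEF and 129 and 123 CPM in ES (log2 fold change 2.44, adjusted p = 3.19e-20). In each of these 5 contacts the ES libraries stood above those of MEF.

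**Figure D5:**
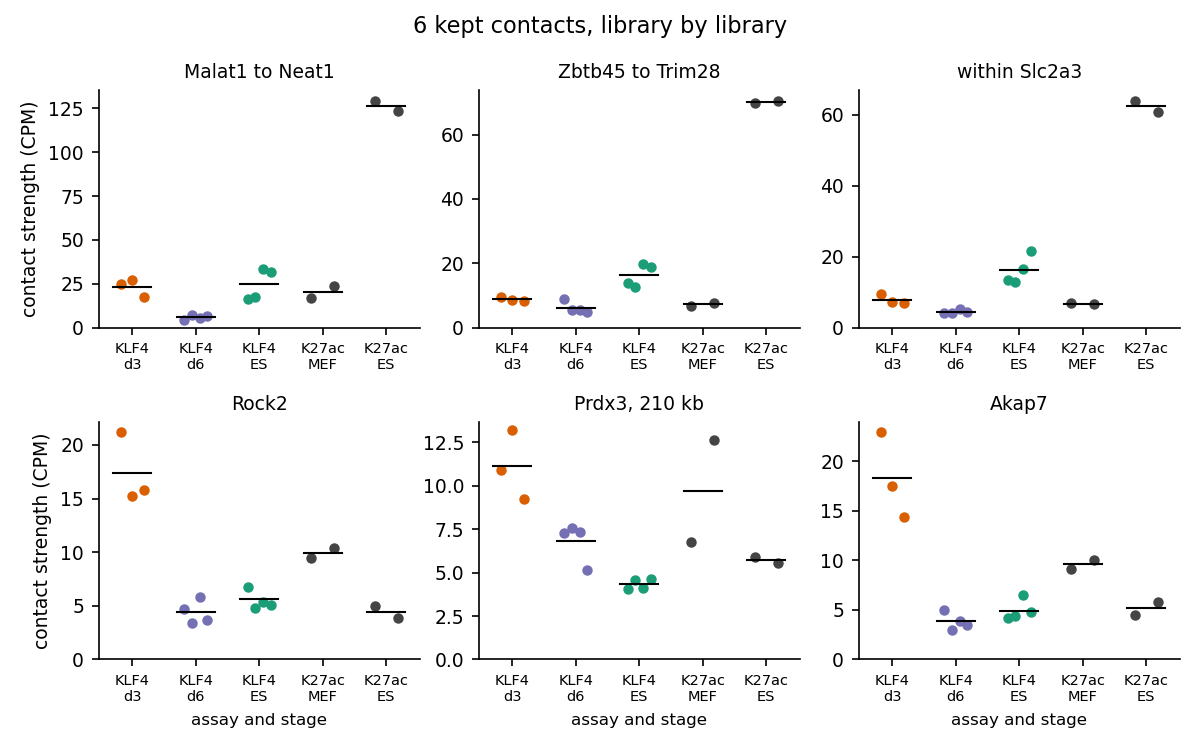
Contact strength (y axis, CPM) of 6 kept contacts in each library of KLF4 HiChIP at day 3, day 6 and ES and of H3K27ac (K27ac) HiChIP in MEF and ES (x axis); points are libraries and lines are means over replicates. The upper 3 have their highest H3K27ac in ES, up to 129 CPM at Malat1 to Neat1, and the lower 3 have their highest KLF4 at day 3.

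Losses of H3K27ac contact strength were smaller. Of the 10 largest, 4 were overlapping contacts within Synpo, the gene of an actin-associated protein, and these share bins and are not independent; their log2 fold changes ran from -2.04 to -1.82. Within Ahnak (chr19:9020001-9030000 with chr19:9060001-9070000) H3K27ac was 16.8 and 22.1 CPM in MEF and 6.36 and 6.24 CPM in ES (log2 fold change -1.81 ± 0.23 SE, adjusted p = 1.44e-08). KLF4 there was even, with 7.26 ± 1.39 CPM at day 3 (SD, n = 3), 8.06 ± 0.97 CPM at day 6 (SD, n = 4) and 7.83 ± 2.65 CPM in ES (SD, n = 2). Within Ergic1, which encodes a protein of the secretory pathway, H3K27ac was 27.7 and 34.3 CPM in MEF and 10.1 and 12.7 CPM in ES (log2 fold change -1.60, adjusted p = 3.57e-11), and KLF4 was also lower, with 13.6 ± 1.70 CPM at day 3 (SD, n = 3) and 5.21 ± 1.64 CPM in ES (SD, n = 2). Rock2, Akap7 and Myof, named above for KLF4, had H3K27ac log2 fold changes of -1.48, -1.25 and -1.39 (adjusted p = 1.07e-06, 4.69e-06 and 3.63e-05). The 210 kb contact of the Prdx3 promoter bin had 6.74 and 12.6 CPM in MEF and 5.89 and 5.55 CPM in ES (log2 fold change -0.98, adjusted p = 0.00565), and without MEF library 2 the adjusted p was 0.605. Its KLF4 values were 10.9, 13.2 and 9.23 CPM at day 3, 7.28, 7.57, 7.37 and 5.15 CPM at day 6 and 4.06, 4.57, 4.12 and 4.62 CPM in ES, and the 3 ranges did not overlap. The same bin thus had a short contact with even values and a long one whose values differed between stages.

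Contacts of the listed genes went both ways. The Fos promoter had 2 kept contacts. That to the next bin had 18.4 and 18.3 CPM of H3K27ac in MEF and 9.45 and 8.95 CPM in ES (log2 fold change -1.30, adjusted p = 5.65e-08). That to a bin 20 kb away had a log2 fold change of -0.40 (adjusted p = 0.0379), and the call did not hold with DESeq2 (adjusted p = 0.353). The 2 Junb contacts had log2 fold changes of -0.05 and 0.32 (adjusted p = 0.805 and 0.0862), with KLF4 at 13.4 ± 2.40 and 11.7 ± 1.51 CPM at day 3 (SD, n = 3) and 10.2 ± 0.94 and 10.8 ± 0.64 CPM in ES (SD, n = 2). At Sp1, a general GC-box factor, H3K27ac rose from 10.8 and 10.8 CPM in MEF to 28.5 and 30.9 CPM in ES (log2 fold change 1.19, adjusted p = 9.52e-08), with KLF4 at 11.1, 10 and 8.44 CPM at day 3 and 11.1, 15.4, 13.3 and 14.2 CPM in ES. At Ctcf, the main insulator protein, it rose from 5.35 and 6.28 to 10.9 and 12.3 CPM (log2 fold change 1.00, adjusted p = 0.000138), and KLF4 was 5.21 ± 0.39 CPM at day 3 and 5.38 ± 0.72 CPM in ES. The promoter to promoter contact of Cox7a1 with Capns1, a calpain subunit, rose from 11.6 and 9.67 to 22.1 and 21.7 CPM (log2 fold change 0.96, adjusted p = 4.28e-06). In the LIF signalling pathway, Stat3, its transcription factor, fell from 11.9 and 10.4 to 6.39 and 6.73 CPM (log2 fold change -0.79, adjusted p = 0.00123; 0.0648 with DESeq2), while Il6st, the shared receptor chain, had a log2 fold change of -0.11 (adjusted p = 0.627). The 2 contacts of Cdkn1a, the cell cycle inhibitor p21, had -0.46 and 0.10 (adjusted p = 0.0863 and 0.707).

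The 4 epithelial genes named above had 5 kept contacts, and 4 of the 5 were in the ES but not the MEF H3K27ac list: those of Cdh1, Epcam and the 2 of Crb3. Over all kept contacts this was so for 329 (21.9%). The 4 genes pool 2 annotations. By RefSeq start sites it was so for the contacts of Crb3 and Epcam and not for that of Cldn6. By the authors' names it was so for the contact of Cdh1 and not for that of Cldn6. The Cdh1 contact (20 kb) had 4.52, 4.62 and 4.06 CPM of KLF4 at day 3, 4.93, 4.02, 3.31 and 2.79 CPM at day 6 and 4.69, 7.92, 5.39 and 6.57 CPM in ES, with H3K27ac at 12.1 and 13.6 CPM in ES. All of its ES libraries stood above those of day 3. The Cldn6 contact was in both H3K27ac lists, with 8.58 and 13.0 CPM in MEF and 6.01 and 7.17 CPM in ES, and its edgeR call (log2 fold change -0.89, adjusted p = 0.00215) was lost with DESeq2 (adjusted p = 0.120). Its KLF4 values were even, at 7.28 ± 0.22 CPM at day 3 (SD, n = 3) and 6.47 ± 0.59 CPM in ES (SD, n = 2). Among chromatin genes, the contact at Hdac1, a histone deacetylase, rose from 4.35 and 5.87 CPM of H3K27ac in MEF to 15.2 and 16.7 CPM in ES (log2 fold change 1.43, adjusted p = 4.24e-08), while that within Kdm2b, a histone demethylase, had a log2 fold change of 0.47 (adjusted p = 0.120). KLF4 at the Kdm2b contact was 6.98 ± 1.46 CPM at day 3 and 7.01 ± 0.30 CPM in ES.

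Contacts at genes outside the lists differed in whether KLF4 and H3K27ac moved alike. Within Macf1, which encodes a linker of microtubules and actin, H3K27ac was 5.49 and 5.38 CPM in MEF and 43.9 and 42.8 CPM in ES (log2 fold change 2.82, adjusted p = 2.77e-20), beside KLF4 at 8.52 ± 2.18 CPM at day 3 (SD, n = 3) and 10.3 ± 0.63 CPM in ES (SD, n = 2). Within Arntl, a core gene of the circadian clock, it was 19.2 and 31.4 CPM in MEF and 8.78 and 10.1 CPM in ES (log2 fold change -1.58, adjusted p = 1.58e-11), beside KLF4 at 9.14 ± 1.10 and 6.98 ± 0.79 CPM. An 80 kb contact within Ahnak (chr19:8990001-9000000 with chr19:9070001-9080000) had 28.1, 26.4 and 22.0 CPM of KLF4 at day 3, 5.46, 4.45, 6.80 and 9.61 CPM at day 6 and 16.7, 16.8, 14.9 and 17.7 CPM in ES. The 3 stages did not overlap, and day 6 was the lowest. H3K27ac there fell from 31.4 and 37.1 CPM in MEF to 20.5 and 20.8 CPM in ES (log2 fold change -0.90, adjusted p = 2.09e-05). The contact of Chaserr, a long noncoding RNA gene, had 21.3, 15.4 and 14.2 CPM of KLF4 at day 3 and 4.94, 3.96, 7.26 and 8.04 CPM in ES, 2.81-fold lower, but its H3K27ac log2 fold change was -0.22 (adjusted p = 0.302).

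In the TKO cells, 24 h of doxycycline were compared with none over 67728 interactions in both lists by the same test. Of all interactions 2.62% were called, 0.576% higher and 2.04% lower at 24 h. Of the 1151 kept contacts tested, 53 (4.60%) were called, 6 higher and 47 lower, and with DESeq2 5 were called, all lower, which is 1.59% of the 315 for which it gave an adjusted p, beside 2.23% of all with one. Leaving out any 1 library gave 30 to 39 calls among the kept contacts, the fewest without library 3 of 24 h. By strength, the median kept contact was at percentile 88.1 of the 0 h list and 87.3 of the 24 h list. Shares called at equal strength were not compared here either. The contact of Ehd1 with Men1, the gene of the tumour suppressor menin (chr19:6270001-6280000 with chr19:6330001-6340000), had 25.6, 28.5 and 23.0 CPM at 0 h and 13.8, 12.1 and 14.8 CPM at 24 h (log2 fold change -0.85 ± 0.18 SE, adjusted p = 0.000713). That of Rin1, a regulator of RAS signalling, had 41.4, 48.4 and 49.2 CPM at 0 h and 30.8, 27.1 and 16.6 CPM at 24 h (log2 fold change -0.80, adjusted p = 1.24e-05). The Zfp518a contact had 40.8, 36.3 and 46.0 CPM and then 21.5, 27.9 and 19.0 CPM (log2 fold change -0.72, adjusted p = 0.000248). Malat1 to Neat1 had 99.4, 117 and 116 CPM and then 64.9, 67.9 and 75.8 CPM (log2 fold change -0.56, adjusted p = 0.000113). Cox7a1 to Capns1 and Il6st were also called lower, with log2 fold changes of -0.40 and -0.46 (adjusted p = 0.0280 and 0.0473). In each of these, all 24 h libraries lay below all 0 h libraries. The calls of Ehd1 to Men1, Rin1 and Malat1 to Neat1 held in every alternative that gave a value, and DESeq2 gave none for Ehd1 to Men1. The Zfp518a call was lost with DESeq2 (adjusted p = 0.0918), that of Cox7a1 with DESeq2 and without any 1 of 4 of the 6 libraries (adjusted p up to 0.235), and that of Il6st with DESeq2 and without any 1 library (adjusted p from 0.054 to 0.362).

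Of the 6 contacts called higher at 24 h, the largest difference was at a contact of Csnk1a1, the gene of a casein kinase. It had 8.25, 8.97 and 5.10 CPM at 0 h and 15, 9.79 and 15 CPM at 24 h (log2 fold change 0.86, adjusted p = 0.0052), with all 24 h libraries above all 0 h libraries. The call was lost without library 3 of 0 h or without library 1 or 3 of 24 h (adjusted p = 0.0963, 0.057 and 0.0798). A contact within Fgfr2, which encodes a fibroblast growth factor receptor, had 6.27, 5.74 and 6.61 CPM at 0 h and 8.35, 9.32 and 9.21 CPM at 24 h (log2 fold change 0.68, adjusted p = 0.0301). Its call was lost without any 1 library (adjusted p from 0.0533 to 0.135) and without TMM factors (adjusted p = 0.0797).

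Hi-C was compared between ES and MEF over 124204 interactions in both lists, of which 40 (0.0322%) were called by edgeR, 0.0209% higher and 0.0113% lower in ES. None of the 918 kept contacts tested was called, 94 (10.2%) had an unadjusted p-value under 0.05, compared with 6.04% of the other interactions, and DESeq2 called 0. Their median log2 fold change was -0.03, against 0.00 over all. Kept contacts in the Hi-C lists had medians of 37.5 counts in MEF and 46.5 in ES, against 21.5 and 25.5 for the whole lists. Shares under 0.05 at equal counts were not compared. In simulated data with 200 changes of 2-fold, drawn from all interactions tested, the test recovered 28.5% in Hi-C. It recovered 56.0% for H3K27ac in ES and MEF and 67.5% in TKO. Over all interactions a Hi-C difference of that size was thus often missed, in counts drawn with the same spread between replicates at every contact. Recovery at the kept contacts, whose counts were higher, was not simulated. Among the 10 contacts with the largest H3K27ac gains, counts were 23 and 23 in MEF and 32 and 44 in ES Hi-C for the gene-free pair on chromosome 17 (adjusted p = 0.964), and 31 and 43 against 59 and 53 for Slc2a3 (adjusted p = 0.999). Malat1 to Neat1 had 15 and 21 counts in MEF and 25 and 43 in ES (adjusted p = 0.873). At each of these 3 contacts both ES counts were above both MEF counts, beside larger count sums of the ES Hi-C libraries. Their Hi-C log2 fold changes were 0.33, 0.21 and 0.52, whereas H3K27ac differed 5.44-fold to 10.3-fold there. Also among the 10, the same order held at Trim71 (25 and 29 in MEF, 34 and 37 in ES) and Rfx2 (27 and 36, then 43 and 63). It held as well at a second contact within Slc2a3 (32 and 30, then 42 and 42). A contact of chr7:63940001-63950000 with chr7:63950001-63960000 had 35 and 33, then 50 and 51. The contact of Zbtb45 with Trim28 was in the ES Hi-C list but not in that of MEF. Macf1 and Gcnt2, also among the 10, did not share this order. Macf1 had 36 and 40 counts in MEF and 37 and 47 in ES (log2 fold change -0.24, adjusted p = 0.991), and Gcnt2 had 43 and 25 in MEF and 29 and 49 in ES (log2 fold change -0.19).

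The contacts just inside the minimum had values near 3 CPM in their weakest library of replicates 1 and 2. They were a contact within Agps, 1 at the Tjp1 promoter and 1 at the Rabep2 promoter, with stage means of 3.58, 3.78 and 3.98 CPM at day 6. Among pairs of day 3 and ES that the day 6 list lacks, the strongest joined the Ahnak promoter bin to its neighbour (starts 8980001 and 8990001 on chromosome 19), with 39.0 CPM at day 3 and 17.9 CPM in ES.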

How the data were processed

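The 25 libraries were grouped by their labels. Reads were aligned with Bowtie2 2.2.3 to mm10, per the submitters' processing notes. The authors deposited, per list, a raw count of contacts for each bin pair and library, a CPM value and a p-value, whose test is not given in the sources used here. In HiChIP the authors' CPM scales each count to the total of its own chromosome, as the values show. All listed HiChIP interactions had a deposited p-value under 0.1, and replicates 1 and 2 of the KLF4 lists a deposited CPM above 3; a pair that a list lacks has an unknown value. The Hi-C column named CPM was not used, only its counts.

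Libraries whose counts differed by no more than sampling noise (chi-square p of 0.01 or more, in groups where another pair differed) were counted as 1 replicate. CPM values were averaged over replicates. Interactions in both lists of a comparison were tested on raw counts with edgeR 4.0.16 (quasi-likelihood test, filterByExpr, TMM factors, only the 2 groups compared, Benjamini-Hochberg adjustment over all interactions) in R 4.3.3, with DESeq2 1.42.0 as an alternative. The labels do not say that replicates are separate cultures, so p-values measure only the spread between these samples. The step was tested on simulated data with 200 contacts changed 2-fold, and with no change it made 0 calls. Those counts had 1 dispersion (spread between replicates beyond counting) for all contacts of a comparison. It was 0.000453 for H3K27ac in ES and MEF, 0.000516 in TKO and 0.00265 in Hi-C. Contacts that vary more than this between replicates were not simulated, so false calls at them are not covered. Intervals cover counting error only, since amplified ligation products are not independent molecules. Replicate numbers did not pair the samples (correlation of deviations of 0.03 for H3K27ac in MEF and ES).

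The contacts and gene lists were chosen with earlier results of these data known. Named contacts were the strongest, the longest, those with the largest KLF4 or H3K27ac differences, those of the listed genes and those at the edge of the minimum. Promoter windows and gene start sites came from RefSeq tables (GRCm38.p6). Tables were handled with Python 3.11.15, pandas 2.3.3 and scipy 1.17.1. Motif content of the anchor bins themselves was not analysed here. Not all contacts that met these rules are described, and at least 1 is not reported here.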

Additional observations from a re-analysis of the deposited data

Results flagged for a closer look

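The 4 day 6 KLF4 libraries were compared in 36 measures (the median over the kept contacts and the values of single named contacts), and in 3 of these 1 library stood apart from the other 3; chance alone gives about 1 in 20 such groups. At the Sfi1 contact on chromosome 11 library 3 was the highest, with 89.9 CPM. At the 210 kb contact of Prdx3 library 4 was the lowest, with 5.15 CPM. At Trim71 library 1 was the highest, with 5.16 CPM against 4.48, 4.46 and 4.51 CPM.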

How the results depend on the processing

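The number of kept contacts depended on the rule that defines them. It was 2258 with each anchor allowed to lie 1 bin away, 793 with anchors at least 20 kb apart, 693 with deposited p-values under 0.05, 387 with a mean of at least 6 CPM at every stage, and 231 with 1 minimum for all chromosomes. No alternative moved the median KLF4 ratios by more than 1 SD between replicates. The shares in the MEF H3K27ac, ES H3K27ac, TKO 0 h, TKO 24 h, MEF Hi-C and ES Hi-C lists became 82.8%, 89.3%, 87.1%, 86.4%, 91.8% and 94.0% with 1 bin of tolerance, and 76.8%, 88.6%, 84.4%, 82.5%, 78.1% and 81.8% with p-values under 0.05. With 1 minimum for all chromosomes the first 5 were 72.7%, 82.3%, 77.5%, 74.9% and 76.6%. At 20 kb or more the MEF H3K27ac share was 72.0% and the ES Hi-C share 78.3%; at 6 CPM the H3K27ac shares were 72.1% in MEF and 86.6% in ES.

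The 425 H3K27ac calls between ES and MEF became 233 with DESeq2, 236 of the 511 contacts of 20 kb or more, 444 with the replicate block and 293 to 382 with 1 library left out. The 53 TKO calls became 5 with DESeq2, 25 at 20 kb or more, 76 without TMM factors (1 higher), 60 with every library separate, 65 with the replicate block as well, an alternative chosen after seeing the data, and 30 to 39 with 1 library left out. The Hi-C comparison gave 1 call with the replicate block and 0 under the others. The causes were not tested. Of 438 values of the 51 named contacts called for H3K27ac, 392 kept sign and call and 46 lost the call, in 15 contacts. Counts of 11 to 56 per contact and KLF4 library limit what single contacts can show. A fit with motif content of the anchor bins was not run.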
